A study of Piaractus mesopotamicus and Piaractus mesopotamicus x Colossoma macropomum and Colossoma macropomum with 15 samples.

Results

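The miR-199 and miR-214 family was followed in fast skeletal muscle of juvenile pacu, tambaqui and their hybrid. Its members were all loci of the count table whose names begin with dre-miR-199 or dre-miR-214, which gave 7 of 595 loci and 4 of 369 mature names. These were 3 copies of dre-miR-199-5p, 2 copies of dre-miR-199-3p, the paralog dre-miR-199-3-3p and dre-miR-214, where dre marks the zebrafish reference, and all 7 passed the filter on low counts. The family was chosen by its name and selected on its raw counts, the most of any family in these libraries, and on the known ratios of its members, so its share, its rank, its arm ratio and the ratio of the paralog to miR-199-3p are a description without a test.

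Small RNA was sequenced from 5 pacu (Piaractus mesopotamicus, PC), 5 tambaqui (Colossoma macropomum, TQ) and 5 tambacu (TC), the hybrid of a tambaqui female and a pacu male. There were 15 libraries, 1 per fish, and p-values measure the spread between these fish. All fish were juveniles, the labels give 1 protocol of water, photoperiod and feeding for every sample, and none received a treatment. The comparisons asked which miRNAs of the hybrid muscle differ from those of each parental genotype.

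A miRNA is cut from a hairpin precursor whose 5′ and 3′ arms can both give a mature strand, and bases 2 to 8 of that strand, the seed, lead the choice of target mRNAs. In mouse and human, miR-199a and miR-214 are made from a shared transcript, Dnm3os, and are known from mesenchymal cells such as fibroblasts. In zebrafish embryos, miR-214 is known to lower su(fu), an inhibitor of Hedgehog signaling, and so to tune muscle cell fates.

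The mature sequences below are the 4 names of the family as the study's zebrafish precursors hold them, from 5′ to 3′ with the seed in capitals. They are shown because the report turns on how similar the 3′ strands are.
miR-199-5p: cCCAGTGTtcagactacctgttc
miR-199-3p: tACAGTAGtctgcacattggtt
miR-199-3-3p: aCAGTAGTccgcacattggtt
miR-214: aCAGCAGGcacagacaggcag

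Aligned without gaps, miR-199-3-3p began 1 base later than miR-199-3p and matched it at 20 of 21 bases. The 1 difference was T11C, with the miR-199-3p base first and positions counted from the 5′ end of miR-199-3p. Bases 2 to 7 of miR-199-3-3p, CAGTAG, were bases 3 to 8 of miR-199-3p, so both strands hold this hexamer, 1 base apart in the seed window. None of the 345 mature names placed on the precursors, apart from the member itself, had the seed of a member.

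The precursors are shown in full, with the counted strands in capitals, because they say which arms lie on the same hairpin and which copies cannot be told apart.
dre-mir-199-1: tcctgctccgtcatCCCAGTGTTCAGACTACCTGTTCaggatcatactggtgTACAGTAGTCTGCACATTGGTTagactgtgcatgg
dre-mir-199-2: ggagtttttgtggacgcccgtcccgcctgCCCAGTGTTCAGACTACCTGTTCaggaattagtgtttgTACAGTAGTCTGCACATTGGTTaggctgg
dre-mir-199-3: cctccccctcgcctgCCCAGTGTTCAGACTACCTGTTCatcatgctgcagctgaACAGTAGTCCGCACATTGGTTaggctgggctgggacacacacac
dre-mir-214: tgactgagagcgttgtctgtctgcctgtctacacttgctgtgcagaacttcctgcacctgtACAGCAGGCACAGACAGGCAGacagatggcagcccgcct

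All placements were on the plus strand of the precursor at 100% identity. miR-199-5p lay at bases 15 to 37 of dre-mir-199-1, 30 to 52 of dre-mir-199-2 and 16 to 38 of dre-mir-199-3. miR-199-3p lay at 53 to 74 of dre-mir-199-1 and 68 to 89 of dre-mir-199-2. The third hairpin, dre-mir-199-3, held miR-199-3-3p at 55 to 75 in place of miR-199-3p. miR-214 lay at 62 to 82 of its precursor, and the other arm of that hairpin was not among the loci. Genome coordinates of these hairpins were not used here, and the sequences are those of zebrafish, not of pacu or tambaqui.

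The copies of a name gave no separate measurements. The 3 copies of miR-199-5p had 8843044, 8843128 and 8843173 counts over the 15 fish, and the 2 copies of miR-199-3p had 811119 and 811112. In single fish the copies differed by at most 32 counts. Around miR-199-5p the hairpins are identical over 24 to 30 bases, and around miR-199-3p over 26 bases, longer than the mature strands themselves. The 7 loci therefore carry 4 readouts, and levels below are those of the first copy unless all copies are named. No member's place overlapped that of another mature name.

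The family held 47.6% ± 4.89 (SD, n = 15) of all counts when every copy was taken as deposited. That share adds up the nearly equal counts at the copies of a name, so it repeats them. The share was 46.5% ± 7.54 in PC, 47.3% ± 4.26 in TC and 49.1% ± 2.11 in TQ (SD, n = 5 each). Single fish ranged from 35.3% in PC replicate 8 to 54.6% in PC replicate 3, so both extremes were pacu and the genotypes overlapped. Taking the mean of the copies of every name in the table, the share was 35.2% ± 4.06 (SD, n = 15).

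**Figure D1:**
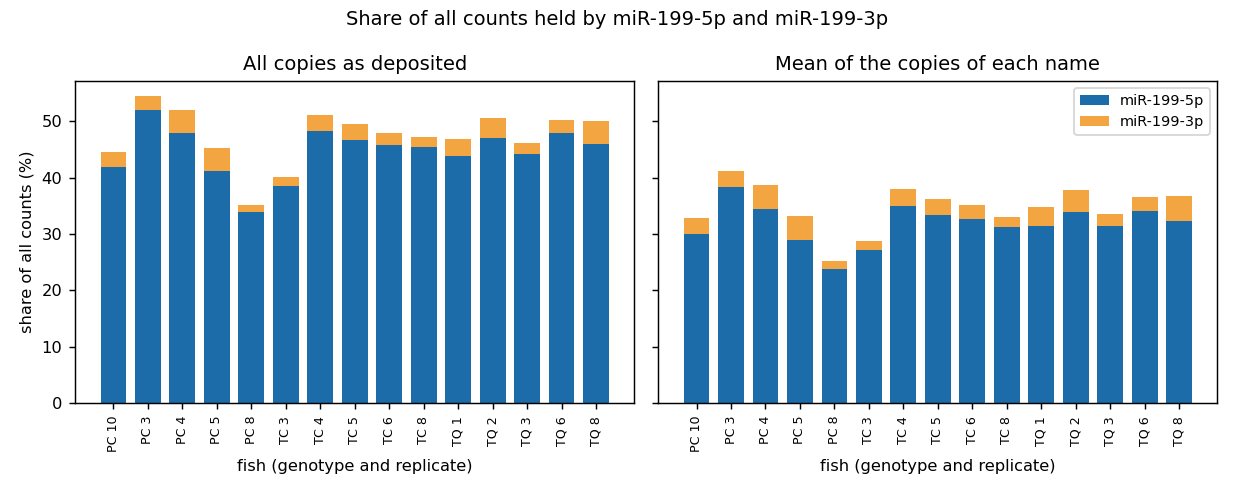
Share of all counts in percent (y axis) held by miR-199-5p and miR-199-3p in each of the 15 fish (x axis), with all copies as deposited (left) and with the mean of the copies of each name (right). miR-199-5p makes up most of every bar; miR-214 and miR-199-3-3p, at 0.194% and 0.0218% of all counts on average, are not drawn.

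The members of the family spanned the whole range from the most counted miRNA to a minor one. miR-199-5p ranked first of all names by total count under either treatment of copies, with 44.7% ± 4.44 of counts (SD, n = 15, all copies). It was followed by miR-100-5p with 22.8% ± 4.64, by miR-99 and by miR-21. miR-199-3p was the fifth, with 2.72% ± 0.925. miR-214, with 0.194% ± 0.0595, was at rank 32, and miR-199-3-3p, with 0.0218% ± 0.0112, at rank 69. With the mean of copies, miR-199-5p held 31.9% ± 3.50 and miR-100-5p 24.3% ± 4.82 (SD, n = 15). miR-214 and miR-199-3-3p were then at ranks 28 and 65.

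The tissue label was compared with miRNAs of striated muscle. miR-1, the miRNA of heart and skeletal muscle fibers, was counted in every fish. It was at rank 35 with all copies and at rank 42 with the mean of copies. The first copy of miR-199-5p exceeded that of miR-1 by 150 to 251 times (median 211). Of the 5 striated muscle names listed, miR-1, miR-206-3p and miR-499-5p had counts, and miR-133a-3p and miR-133b-3p were listed at 0 in every fish. At each of their loci the annotated place of miR-133a-3p overlaps that of miR-133b-3p, and whether this set the zeros was not tested. In bulk muscle, fewer cells of a type and less of a miRNA per cell cannot be told apart.

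Levels per fish are given as CPM, counts scaled to a common TMM-adjusted library size. That size includes the counts at every copy of a name, so the CPM of a first copy is not the share of its name. A read spans the whole miRNA, so CPM of different miRNAs needs no scaling by length. Whether different miRNAs were sequenced with equal efficiency was not tested. The total count per fish was 2422820 to 5669084, with medians of 4769153 in PC, 4763971 in TC and 2858311 in TQ, and TMM factors ran from 0.621 in PC replicate 8 to 1.43 in TQ replicate 8. A count of 0 allows up to 0.463 to 1.33 CPM, for counting error only. All members lay far above that limit, and the spread between fish, with a biological coefficient of variation of 0.173 to 0.215 for the members against a median of 0.242 over all loci tested, set their precision.

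miR-199-5p, the 5′ strand of all 3 miR-199 hairpins, was the member with the most counts in every fish. In PC its level was 202280 CPM in replicate 3, 117661 in replicate 4, 114635 in replicate 5, 181668 in replicate 8 and 145676 in replicate 10. In TC it was 172624, 164545, 155004, 183592 and 162828 CPM in replicates 3, 4, 5, 6 and 8. In TQ it was 135220, 122375, 139060, 156661 and 106674 CPM in replicates 1, 2, 3, 6 and 8. The pacu fell into higher and lower values that enclosed nearly all other fish, and the tambacu lay close together in the upper part of that range. Only the lowest TC fish was below the highest TQ fish.

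The means were 152384 ± 38803 CPM in PC, 167718 ± 10859 in TC and 131998 ± 18724 in TQ (SD, n = 5 each), an order in which no neighbors passed the test. In the quasi-likelihood test of edgeR the log2FC was 0.14 (SE 0.18, adjusted p = 0.775) for TC vs. PC, 0.35 (SE 0.18, adjusted p = 0.164) for TC vs. TQ and 0.21 (SE 0.18, adjusted p = 0.423) for PC vs. TQ. With total counts as library sizes the last 2 values became -0.03 and -0.08. The 95% interval for TC vs. TQ, -0.01 to 0.70 on the log2 scale, leaves room for a difference. It is a normal approximation from the SE, and an interval from the edgeR test itself would be wider.

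miR-199-3p, the 3′ strand of the first 2 hairpins, was far less counted. In PC it was 14481, 14768, 17304, 10800 and 13863 CPM in replicates 3, 4, 5, 8 and 10. In TC it was 10075, 14170, 13617, 13314 and 9656 CPM in replicates 3, 4, 5, 6 and 8. In TQ it was 14040, 14507, 9748.5, 10766 and 14375 CPM in replicates 1, 2, 3, 6 and 8. TC and TQ each had 2 fish near the bottom of the range and 3 near the middle, and all 3 genotypes overlapped. The means were 14243 ± 2329 CPM in PC, 12166 ± 2128 in TC and 12687 ± 2254 in TQ (SD, n = 5 each). By edgeR the log2FC was -0.23 (SE 0.17, adjusted p = 0.467) for TC vs. PC, -0.06 (SE 0.17, adjusted p = 0.820) for TC vs. TQ and 0.17 (SE 0.17, adjusted p = 0.498) for PC vs. TQ.

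miR-214, which in mouse and human shares its transcript with miR-199a, was the steadiest member in the hybrid. In PC it was 1828, 1793, 1667, 1961 and 2047 CPM in replicates 3, 4, 5, 8 and 10. In TC it was 1814, 1797, 1837, 1688 and 1801 CPM in replicates 3, 4, 5, 6 and 8. In TQ it was 2392, 1973, 1457, 1687.5 and 2420 CPM in replicates 1, 2, 3, 6 and 8. The TQ fish enclosed all PC and all TC fish, and the SD was 7.96% of the mean in PC, 3.23% in TC and 21.4% in TQ. The means of 1859 ± 148 CPM in PC, 1787 ± 57.7 in TC and 1986 ± 425 in TQ (SD, n = 5 each) did not pass the edgeR test in any contrast. Its log2FC was -0.06 (SE 0.13, adjusted p = 0.811) for TC vs. PC, -0.15 (SE 0.13, adjusted p = 0.418) for TC vs. TQ and -0.10 (SE 0.13, adjusted p = 0.667) for PC vs. TQ.

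miR-199-3-3p, the 3′ strand of the third hairpin, was the least counted member and the one member called differentially expressed (DE). In PC its level was 181, 241, 304, 184 and 268 CPM in replicates 3, 4, 5, 8 and 10, from 582 to 1780 counts. In TC it was 134, 123, 147, 130 and 143 CPM in replicates 3, 4, 5, 6 and 8, from 323 to 837 counts. In TQ it was 256, 255, 177, 183 and 325 CPM in replicates 1, 2, 3, 6 and 8, from 458 to 1350 counts. Every TC fish lay below every PC and every TQ fish, and the parental genotypes overlapped throughout. The hybrid fish also lay closer together, with an SD of 7.28% of the mean against 22.5% in PC and 25.5% in TQ.

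**Figure D2:**
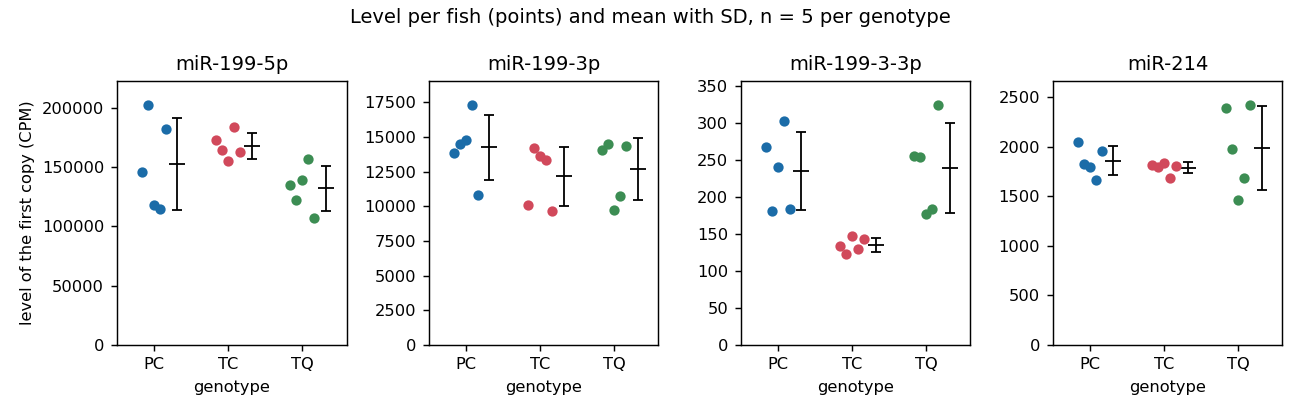
Level of the first copy of each name in CPM (y axis, linear from 0) in PC, TC and TQ (x axis). Each point is 1 fish, and the black marks are the mean with its SD (n = 5); for miR-199-3-3p the 5 TC fish, at 123 to 147 CPM, lie below all PC and TQ fish, and for the other 3 names the genotypes overlap.

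miR-199-3-3p was downregulated in the hybrid against both parents. Its level was 135 ± 9.85 CPM in TC against 236 ± 53.1 in PC and 239 ± 61.0 in TQ (SD, n = 5 each). In TC vs. PC the log2FC was -0.80 (SE 0.18, edgeR adjusted p = 0.00979), 0.575 times the PC level. In TC vs. TQ it was -0.82 (SE 0.18, edgeR adjusted p = 0.00768), 0.566 times the TQ level. Pacu and tambaqui had a log2FC of -0.02 (SE 0.18, edgeR adjusted p = 0.936, 95% interval by normal approximation -0.38 to 0.33). That this locus is lower in TC was known when the family was chosen, and the same fish give these values, so they are no independent support.

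Calls required a log2FC of 0.75 or more in either direction together with an adjusted p no higher than 0.05 over every locus tested, and both changes lay close to that minimum. In TC vs. PC the call was lost without PC replicate 4 (log2FC -0.72, edgeR adjusted p = 0.0273), without PC replicate 5 (-0.65, adjusted p = 0.0515) and without TC replicate 4 (-0.72, adjusted p = 0.0326), and the TC vs. TQ call when TQ replicate 8 was left out (-0.65, adjusted p = 0.0272). With total counts as library sizes the TC vs. PC call was lost (-0.998, edgeR adjusted p = 0.0882), and a log2FC minimum of 1 ended both calls. The log2FC stayed negative without any 1 fish, from -0.89 to -0.65 against PC and from -0.92 to -0.65 against TQ.

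Among the 7 loci, 1 was called in TC vs. PC, where 3.52% of all loci tested were called in either direction and 1.01% as lower in TC. In TC vs. TQ 1 was called, against 14.6% of all loci in either direction and 6.53% as lower in TC. In PC vs. TQ none of the 7 was called, against 10.6% of all loci. None of the 7 had an unadjusted p under 0.05 there, against 34.7% of all loci, but copies of a name repeat each other, so the 7 are only 4 readouts. The genotypes overlapped for all 7, while for 11.6% of all loci pacu and tambaqui did not. DESeq2 without a log2FC prior also called none of them there. Non-overlapping genotypes with the hybrid lower were seen for 3.52% of all loci against PC and for 9.55% against TQ. The median log2FC of the 4 names was -0.14 in TC vs. PC, -0.11 in TC vs. TQ and 0.07 in PC vs. TQ, beside 0.02, 0.03 and 0.00 over all loci tested.

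**Figure D3:**
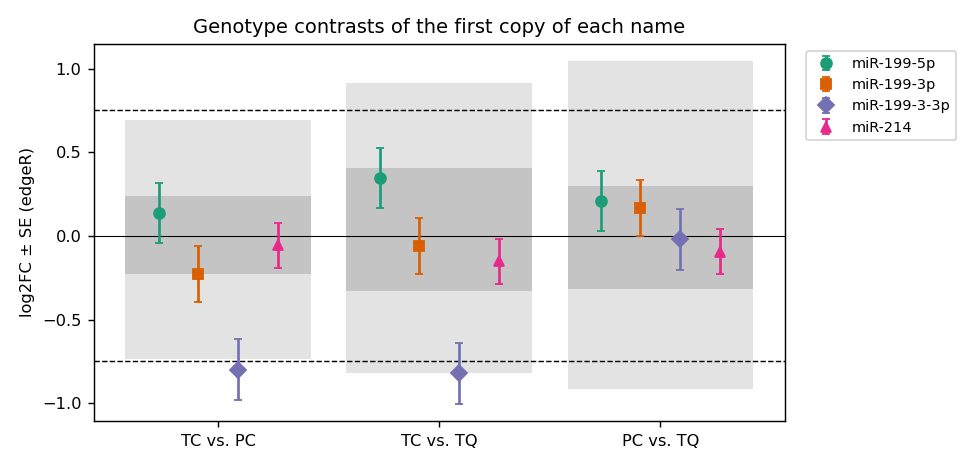
log2FC with its SE from edgeR (y axis) for the first copy of each name in the 3 contrasts (x axis). Dark and light grey bands span the middle of all loci tested (quartiles, and percentiles 5 to 95), and dashed lines mark the log2FC minimum of 0.75; miR-199-3-3p passes the lower line at -0.80 and -0.82 in the contrasts of TC, and the other names stay between -0.23 and 0.35.

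Ratios of members within a library do not depend on its scaling, and were taken from the counts with the mean of the copies of a name. The arm ratio set miR-199-5p against miR-199-3p. In PC it was 14.0, 7.97, 6.62, 16.8 and 10.5 in replicates 3, 4, 5, 8 and 10. In TC it was 17.1, 11.6, 11.4, 13.8 and 16.9 in replicates 3, 4, 5, 6 and 8. In TQ it was 9.63, 8.44, 14.3, 14.6 and 7.42 in replicates 1, 2, 3, 6 and 8. The 5′ strand was the more counted in every fish, by a factor that varied 2.54-fold among the pacu alone, and the genotypes overlapped.

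The arm ratio was 11.2 ± 4.22 in PC, 14.2 ± 2.76 in TC and 10.9 ± 3.33 in TQ (SD, n = 5 each). The difference of mean log2 ratios was 0.40 (SE 0.28) for TC vs. PC, 0.41 (SE 0.23) for TC vs. TQ and 0.01 (SE 0.32) for PC vs. TQ. miR-199-5p also comes from dre-mir-199-3, so this ratio is over the family and not within 1 hairpin.

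The paralog was set against miR-199-3p as a percentage. In PC miR-199-3-3p was 1.25%, 1.63%, 1.75%, 1.71% and 1.93% of miR-199-3p in replicates 3, 4, 5, 8 and 10. In TC it was 1.33%, 0.866%, 1.08%, 0.978% and 1.48% in replicates 3, 4, 5, 6 and 8. In TQ it was 1.82%, 1.76%, 1.81%, 1.70% and 2.26% in replicates 1, 2, 3, 6 and 8. All 5 TC fish were below all 5 TQ fish, while 1 pacu, replicate 3, lay within the tambacu range. As a share of both strands together, the lowest fish, TC replicate 4, had 0.858% (95% Wilson interval 0.791 to 0.931) and the highest, TQ replicate 8, had 2.21% (2.09 to 2.33), for counting error only.

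The percentage was 1.65% ± 0.251 in PC, 1.15% ± 0.254 in TC and 1.87% ± 0.223 in TQ (SD, n = 5 each). The difference of mean log2 ratios was -0.73 (SE 0.16) for TC vs. TQ, -0.54 (SE 0.18) for TC vs. PC and -0.18 (SE 0.13) for PC vs. TQ. The 2 strands differ by T11C and by where they start, and whether reads of one were counted at the place of the other was not tested.

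miR-214 was 13.5% ± 3.19 of miR-199-3p in PC, 15.1% ± 2.97 in TC and 15.6% ± 1.42 in TQ (SD, n = 5 each), with single fish from 9.64% in PC replicate 5 to 18.7% in TC replicate 8. The genotypes overlapped. The hybrid differed by 0.18 (SE 0.20) from PC and by -0.07 (SE 0.14) from TQ in the mean log2 ratio, and PC from TQ by -0.24 (SE 0.16), with two-sided exact permutation p-values of 0.429, 0.619 and 0.183. Adjusted over the 9 ratio comparisons computed, these were 0.551, 0.696 and 0.321, and 5 fish against 5 allow no p under 0.00794.

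**Figure D4:**
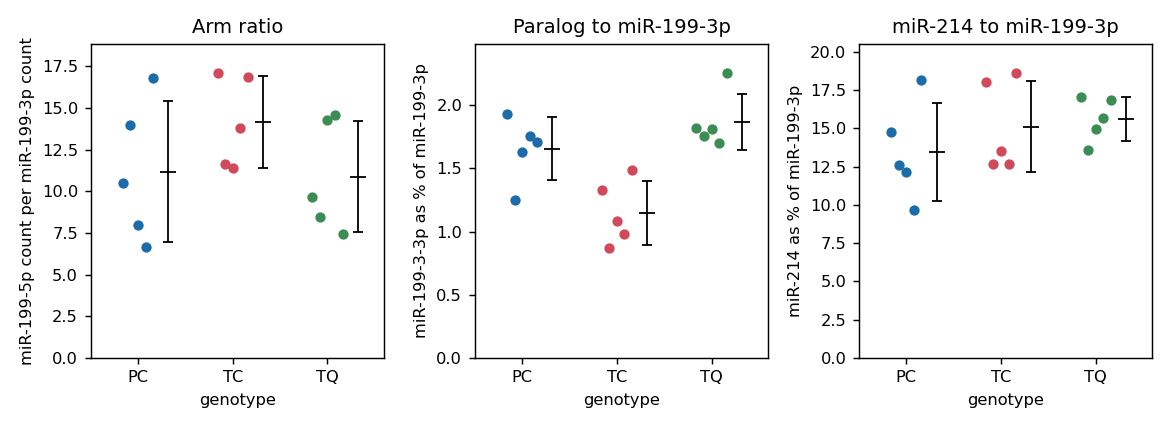
Ratios within each library (y axes, linear from 0) in PC, TC and TQ (x axes): miR-199-5p counts per miR-199-3p count, miR-199-3-3p as a percentage of miR-199-3p, and miR-214 as a percentage of miR-199-3p. Each point is 1 fish and the black marks are the mean with its SD (n = 5); only for the paralog do TC and TQ not overlap (at most 1.48% against at least 1.70%).

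From fish to fish miR-199-5p had negative correlations with the other members, weak for miR-214, and those members had positive correlations with each other. Over the 15 fish, Pearson's r of log2 CPM was -0.44 between miR-199-5p and miR-199-3p and -0.79 between miR-199-5p and miR-199-3-3p. Between miR-199-3p and miR-199-3-3p it was 0.54. With genotype means removed these became -0.51, -0.82 and 0.61, so the signs stayed the same with the 15 fish pooled. These values do not give the sign inside each genotype, and in the TC fish alone miR-199-3p and miR-199-3-3p did not rise together. miR-214 had an r of 0.50 with miR-199-3-3p, 0.33 with miR-199-3p and -0.29 with miR-199-5p. With genotype means removed these were 0.56, 0.35 and -0.17. All points share the scaling of their library, and a miRNA that takes so large a part of the counts also enters that scaling, so these values are a description only.

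The 3 names with the highest r to each member, out of all tested names, are given next as a description. For miR-199-5p the nearest of the tested names were miR-27b-3p (r = 0.91 over 15 fish), miR-10c-5p (0.90) and miR-221-5p (0.88). For miR-199-3p they were miR-458-3p (0.86), miR-128-3p (0.79) and miR-20a-3p (0.77). For miR-199-3-3p they were miR-22a-5p (0.91), miR-221-3p (0.83) and miR-22b-3p (0.82), which fell to 0.75, 0.49 and 0.68 once genotype means were removed. For miR-214 the highest values were lower, at 0.63 with miR-92b-3p, 0.50 with miR-199-3-3p and 0.46 with miR-125b-2-3p. With genotype means removed these were 0.78, 0.56 and 0.44.

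Lists of miRNAs known from other cells of muscle tissue were read beside the change of miR-199-3-3p. Of 8 names of connective tissue and smooth muscle, 7 had counts, and miR-29b was listed at 0. None was called in TC vs. PC or PC vs. TQ, where 3.52% and 10.6% of all loci were called. In TC vs. TQ only miR-29a, which lowers collagen mRNAs in mammals, was called, as lower in TC (log2FC -0.86, edgeR adjusted p = 0.0151). Of all loci 14.6% were called in that contrast, and 6.53% as lower in TC. miR-143, a miRNA of smooth muscle, had a log2FC of 0.53 in TC vs. PC (edgeR adjusted p = 0.00979) and 0.64 in TC vs. TQ (edgeR adjusted p = 0.00319), under the minimum of 0.75. So was miR-140-3p in TC vs. TQ, at 0.67 (edgeR adjusted p = 0.0122). Other names of the list went the other way there, with miR-140-5p at -0.63 (edgeR adjusted p = 0.0521) and miR-145-5p at -0.45 (edgeR adjusted p = 0.0811). The list had a median log2FC of 0.11 against PC and 0.19 against TQ in the hybrid, and of 0.08 between the parents, beside 0.02, 0.03 and 0.00 over all loci.

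The summed level of the 3 smooth muscle and fibroblast names was 4313 to 7874 CPM in PC, 6805 to 8205 in TC and 4759 to 6348 in TQ. Most of that sum was miR-143, and the names did not move together. In TC vs. TQ miR-145-3p had a log2FC of 0.38 (edgeR adjusted p = 0.446) and miR-145-5p of -0.45 (edgeR adjusted p = 0.0811). In PC vs. TQ miR-145-5p had -0.58 (edgeR adjusted p = 0.0457), which was not called. The striated muscle names summed to 1502 to 2038 CPM in TC, 1155 to 1529 in PC and 735 to 1094 in TQ, and miR-499-5p, a miRNA of slow fibers, was called higher in TC and in PC than in TQ (log2FC 1.87 and 1.60, edgeR adjusted p = 0.00768 and 0.0143). The erythroid miR-144-3p and miR-451 summed to 2403 to 3904 CPM in PC, 3754 to 14585 in TC and 1287 to 9215 in TQ. In TC vs. PC, where 3.52% of all loci were called, neither was called. There the log2FC was 1.33 for miR-144-3p (edgeR adjusted p = 0.0781) and 1.41 for miR-451 (edgeR adjusted p = 0.0728). In TC vs. TQ, where 14.6% of all loci were called, miR-144-3p was called higher in TC. There miR-451 had a log2FC of -0.20 (edgeR adjusted p = 0.788). In PC vs. TQ, where 10.6% of all loci were called, miR-451 was called lower in PC. There miR-144-3p had a log2FC of 0.15 (edgeR adjusted p = 0.863). The 4 leukocyte names summed to 215 to 307 CPM in TC, 120 to 250 in PC and 290 to 398 in TQ. Of these 4, 2 were called lower in TC than in TQ, against 6.53% of all loci. In PC vs. TQ 2 were called lower in PC, where 10.6% of all loci were called in either direction. miR-223 was called in both contrasts. The 4 pancreas names summed to 30.5 to 52.6 CPM in TC, 14.9 to 28.6 in PC and 28.8 to 40.8 in TQ. Of these, 3 were tested, since miR-217 did not pass the filter on low counts. In TC vs. PC 2 of them, miR-216a and miR-216b, were called higher in TC, where 3.52% of all loci were called in either direction. The same 2 were called lower in PC than in TQ, against 10.6% of all loci in either direction. miR-375, also tested, went the other way and was not called. Its log2FC was -0.95 in TC vs. PC (edgeR adjusted p = 0.0968) and 0.77 in PC vs. TQ (edgeR adjusted p = 0.143).

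The liver miRNA miR-122 was at 7.51 to 22.7 CPM in TC, 10.01 to 19.8 in PC and 3.42 to 9.44 in TQ, and was called higher in TC and in PC than in TQ. The 2 epidermis names reached at most 170 CPM and the 2 cartilage names at most 178 CPM in any fish, and none of these 4 was called in any contrast. Over all loci, 3.52% were called in TC vs. PC, 14.6% in TC vs. TQ and 10.6% in PC vs. TQ. Both arms of the endothelial miR-126a were listed at 0 in every fish, and their places overlap those of miR-126b. The part of these lists in the lower miR-199-3-3p of TC was not tested.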

How the data were processed

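Small RNA of fast muscle was sequenced from 15 fish, and genotypes came from the sample labels. The authors removed adapters and poor or wrongly sized reads with Fastx-toolkit, mapped the rest to zebrafish miRBase precursors with Hisat2, and obtained counts with featureCounts over mature sequences located by GMAP. How multi-mapping reads were handled, and which Hisat2 and featureCounts versions ran, is not given in the sources used here. Raw counts as deposited, whole reads per locus without normalization, were analysed. The deposited normalized signal is the count divided by 1 size factor per fish, made by the authors with DESeq2, and was used only to check the counts.

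The 199 of 595 loci whose normalized counts averaged 10 or more were tested in edgeR 4.0.16 by its quasi-likelihood method (limma 3.58.1, R 4.3.3), with TMM scaling, all 15 fish in 1 fit, Benjamini-Hochberg adjustment over all 199 loci and a log2FC minimum of 0.75. The test was tried on simulated data first. The ratio of miR-214 to miR-199-3p was compared by two-sided exact permutation tests over 252 arrangements, adjusted over the 9 ratio comparisons computed. The other 2 ratios belong to the choice of the family and are given without a test. Log2 CPM for correlations used a prior count of 2. Total counts were 2422820 to 5669084 per fish. Libraries of 1 genotype differed by 93.2 to 4541 chi-square units per degree of freedom over 30 pairs, so none was the same library sequenced again. This check cannot tell whether different libraries came from 1 fish. Alternatives were other scalings (DESeq2 size factors, total counts, and library sizes that leave out miR-100-5p and miR-199-5p), no filter or filterByExpr, DESeq2 1.42.0, 2 genotypes per fit, summed copies, the fish number as a block, other log2FC minimums and leaving out each fish. Sequences came from the study's supplementary precursor and annotation files. Python 3.11.15, numpy 2.4.6, pandas 2.3.3, scipy 1.17.1 and matplotlib 3.10.9 were used.

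The miRNAs named were all members, the 5 names with the most counts, the 3 names nearest to each member by correlation and those of the marker lists (striated muscle, connective tissue and smooth muscle, smooth muscle and fibroblasts, erythroid cells, leukocytes, endothelium, liver, epidermis, cartilage and pancreas). The members, lists and tests were chosen with earlier results of these data known.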

Additional observations from a re-analysis of the deposited data

Results flagged for a closer look

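Each of 24 groups of 5 fish was searched for a fish that stood apart, by the gap to its nearest neighbor over the range of the group, and 2 were found, where chance gives about 1 in 20. miR-214 in TC replicate 6 was at 1688.07 CPM, below the other TC fish at 1797 to 1837 CPM. The gap was large beside a small range, and that fish lay inside the ranges of PC and TQ. In TQ replicate 8, miR-199-3-3p was 2.25923% of miR-199-3p, above the other TQ fish at 1.70% to 1.82%. The same fish had the highest miR-199-3-3p level of all 15, 325 CPM, the lowest miR-199-5p level, 106674 CPM, and the highest TMM factor, 1.43, and the part of that scaling in its values was not tested.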

How the results depend on the processing

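The 1 member called in TC vs. PC, miR-199-3-3p, became 0 with a log2FC minimum of 1, with total counts as library sizes (log2FC -0.998, edgeR adjusted p = 0.0882) and with the fish number as a replicate block (-0.67, edgeR adjusted p = 0.131). In TC vs. TQ it became 0 with a minimum of 1. Leaving out each fish gave 0 to 1 members called in each of these contrasts. Apart from leaving out fish, 8 of 11 alternatives kept the call in TC vs. PC and 10 of 11 in TC vs. TQ. The other log2FC minimums reuse the main fit. Without a minimum both calls therefore had to stay, and with a minimum of 1 both had to end. Over all 11, those that lost the call included, the adjusted p ran from 0.000386 to 0.131 and from 0.000504 to 0.0450. No member was called in PC vs. TQ under any alternative. The cause of these losses was not tested beyond the change each alternative makes. Fish of different genotypes share only a number: deviations of same-numbered fish had r from -0.486 to 0.267, with 4 of 9 pairs over 0.1. The block took the calls over all loci from 7 to 1 in TC vs. PC, 29 to 29 in TC vs. TQ and 21 to 9 in PC vs. TQ. Across the other alternatives they ran from 3 to 19, 11 to 53 and 14 to 30. Among fits that left out 1 fish, they moved by over 1.5 times without PC replicate 10 (4 in TC vs. PC), PC replicate 4 (11 in TC vs. PC and 38 in PC vs. TQ) and TQ replicates 2, 3 and 8 (19, 17 and 18 in TC vs. TQ).

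Uncalled values near 0 changed sign. With total counts, which moved the median of all loci to -0.10 in TC vs. PC, -0.38 in TC vs. TQ and -0.25 in PC vs. TQ, miR-199-5p went to -0.026 in TC vs. TQ and -0.079 in PC vs. TQ, and miR-199-3p to -0.049 in PC vs. TQ, all above that median. In PC vs. TQ miR-199-3-3p went to 0.031 with DESeq2 size factors and with DESeq2, 0.086 when library sizes left out miR-100-5p and miR-199-5p and 0.079 without a filter. There miR-214 went to 0.0087 and 0.0046 under the last 2, and in TC vs. PC to 0.0075 under the replicate block. Without single fish, miR-199-3p in TC vs. TQ ran from -0.15 to 0.021, miR-199-3-3p in PC vs. TQ from -0.15 to 0.11 and the log2 arm ratio in PC vs. TQ from -0.16 to 0.18. The share of the family was 35.2% with the mean of copies. Depth did not limit the members, since the smallest count was 323. The reference is zebrafish, so bases that differ in these species and reads shared by copies limit every level.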
